A study of Mus musculus with 14 samples.

Results

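Nucleolar ribosome biogenesis was followed through 38 genes in the mouse cell line TR.1, a lung adenocarcinoma line of the genotype Trim24-RET, a gene fusion that keeps the RET receptor tyrosine kinase active. The genes were taken by symbol, matched without regard to case, and all 38 were found among the 55391 named gene rows of both deposited count tables. They are 3 abundant nucleolar proteins, 5 polymerase I and nucleolar transcription genes, 3 genes of box C/D and 3 of box H/ACA small nucleolar ribonucleoproteins (snoRNPs), 12 small subunit and 10 large subunit assembly genes, and 2 polyamine synthesis enzymes. Poly(A) RNA was sequenced in 14 libraries. Selpercatinib, like pralsetinib, blocks the RET kinase selectively. In the acute table, 4 libraries came from TR.1 cells given 100 nM selpercatinib for 1, 2, 3 or 5 days, and 4 from cells given 0.1% DMSO, the solvent, for the same times. In the resistance table, 2 libraries came from selpercatinib-resistant cultures labelled 500 nM and 2 from pralsetinib-resistant cultures labelled 200 and 400 nM, against 2 from parental TR.1 cells passaged in 0.1% DMSO. Per the labels, resistant cultures began at 30 nM and inhibitor was raised over about 60 days to 400 to 500 nM. The 200 nM label thus does not match the protocol. Parental cells have the same culture time of 60 days. Every group is the same cell line with the same fusion. The labels do not say that libraries of a group came from separate cultures, so p-values measure the spread between these libraries, which may be technical. The resistance comparisons share 1 estimate of this spread, which also holds the difference between the 200 and 400 nM libraries. The acute comparison has day as a block and 1 library per arm and day. Its p-values and standard errors therefore measure how the difference between arms varied from day to day, any real change with time included.

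The nucleolus is where RNA polymerase I transcribes ribosomal DNA and where the precursor RNA is modified, cut and packed with ribosomal proteins into the small and large subunits. Box C/D snoRNPs place methyl groups on ribose and box H/ACA snoRNPs convert uridine to pseudouridine, each guided by a small RNA. Many of these genes are known targets of MYC, and their output follows growth signalling in many cancer cells. Odc1 and Srm make polyamines, are not assembly factors, and are known MYC targets as well.

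Promoter sequence is shown for 2 members, one with both motifs that were searched and one with overlapping copies of one. Neither stretch shown overlaps an annotated exon. RefSeq windows on GRCm38.p6 were available for 32 of the 38 members, and the 250 bases upstream of the start were searched on both strands. CACGTG, the E-box that MYC with MAX can bind, was present in 2 of the 32 members (6.25%), Imp4 and Nop2, against 6.86% of 27025 genes. CCGGAA, the core of sites bound by ETS factors, was present in 11 of the 32 members (34.4%), against 13.6% of all genes. Sequence downstream of the start, or further upstream, was not searched. Neither share can therefore show whether a member lacks such a motif elsewhere. Median GC content was 57.6% over the member windows and 52.4% over all windows, and its part in the motif share was not tested. Nop2 encodes an rRNA methyltransferase of large subunit assembly, and the 140 bases before its start (chr6:125131743-125131882, plus strand) hold 1 E-box 60 bases and ETS cores 52 and 38 bases upstream. Gar1 encodes a box H/ACA protein, and the 140 bases before its start (chr3:129831397-129831536, minus strand) hold ETS cores that overlap 42 and 40 bases upstream. Imp4, with 1 E-box, and Nop58, with 2 ETS cores, overlap annotated exons in the same 140 bases and are not shown. Capitals mark the motif letters, in either orientation, and the sequences run 5′ to 3′ on the gene's strand.
Nop2: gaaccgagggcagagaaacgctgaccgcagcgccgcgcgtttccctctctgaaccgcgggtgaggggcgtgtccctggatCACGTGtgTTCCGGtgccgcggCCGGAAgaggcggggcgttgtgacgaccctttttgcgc
Gar1: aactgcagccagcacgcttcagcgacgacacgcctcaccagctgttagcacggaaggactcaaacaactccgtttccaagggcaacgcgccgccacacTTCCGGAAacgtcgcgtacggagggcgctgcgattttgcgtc
A match is a stretch of letters, and no binding was measured here.

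Libraries held 68.5 to 89.7 M counts in the acute table and 60.6 to 81.7 M counts in the resistance table, and the lowest member value in any library was 23.3 CPM (counts scaled to library size, with TMM factors for composition). Epithelial markers were abundant in acute and parental cells, whose group means for Krt8 ran from 1881 to 3214 CPM and for Epcam from 243 to 422 CPM, while Sftpc, Sftpb and Napsa, surfactant and alveolar genes, were at most 0.146 CPM in any group mean, and Nkx2-1, a lung lineage factor, was at 1.51 to 7.48 CPM. In the resistant groups Epcam was under 1 CPM, the 12 epithelial markers summed to 1183 to 1269 CPM (selpercatinib-resistant) and 648 to 1329 CPM (pralsetinib-resistant), against 9497 to 9582 CPM in parental cells, and 9 of the 12 exceeded 1 CPM in parental cells. Nkx2-1 did not share the fall in selpercatinib-resistant cells, with group means of 7.48 and 1.51 CPM in the same order, against 1.86 CPM in parental cells. The 8 fibroblast markers summed to 1792 to 2039 and 787 to 1240 CPM in the same 2 resistant groups, against 14.1 to 15.1 CPM in parental cells. Col1a1 was the highest of the 8 there, with group means of 1338 and 518 CPM, while Lum was at 0.135 and 0.07 CPM. Pdgfra was at 3.96 and 1.87 CPM, against 2.56 CPM in parental cells. Ptprc, which marks leukocytes, was at most 0.161 CPM and Pecam1, which marks endothelium, at most 0.302 CPM in any group. Of the 8 leukocyte markers only Cd68 had a group mean over 1 CPM, from 3.23 CPM (selpercatinib-resistant) to 11.3 CPM (acute DMSO). Of the 6 endothelial markers only Kdr did, from 0.833 CPM (parental) to 2.44 CPM (acute selpercatinib).

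RET inhibition for 1 to 5 days was asked about first. Of the 38 members, 34 were lower in selpercatinib than in DMSO and 0 were higher, where 27.8% of the 13195 genes tested were called lower and 25.7% higher (edgeR quasi-likelihood test with day as a block, Benjamini-Hochberg adjusted p under 0.05). No member was higher at an unadjusted p under 0.05, by DESeq2 or by limma either. The members' median log2 fold change was -0.68, against -0.01 over all genes tested. Role medians were -1.02 for the abundant nucleolar proteins, -0.97 for box C/D genes, -0.90 for the polyamine genes, -0.81 for polymerase I genes, -0.59 for box H/ACA genes, -0.54 for large subunit and -0.43 for small subunit assembly. In bulk libraries, fewer cells of a type and less RNA per cell cannot be told apart.

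**Figure D1:**
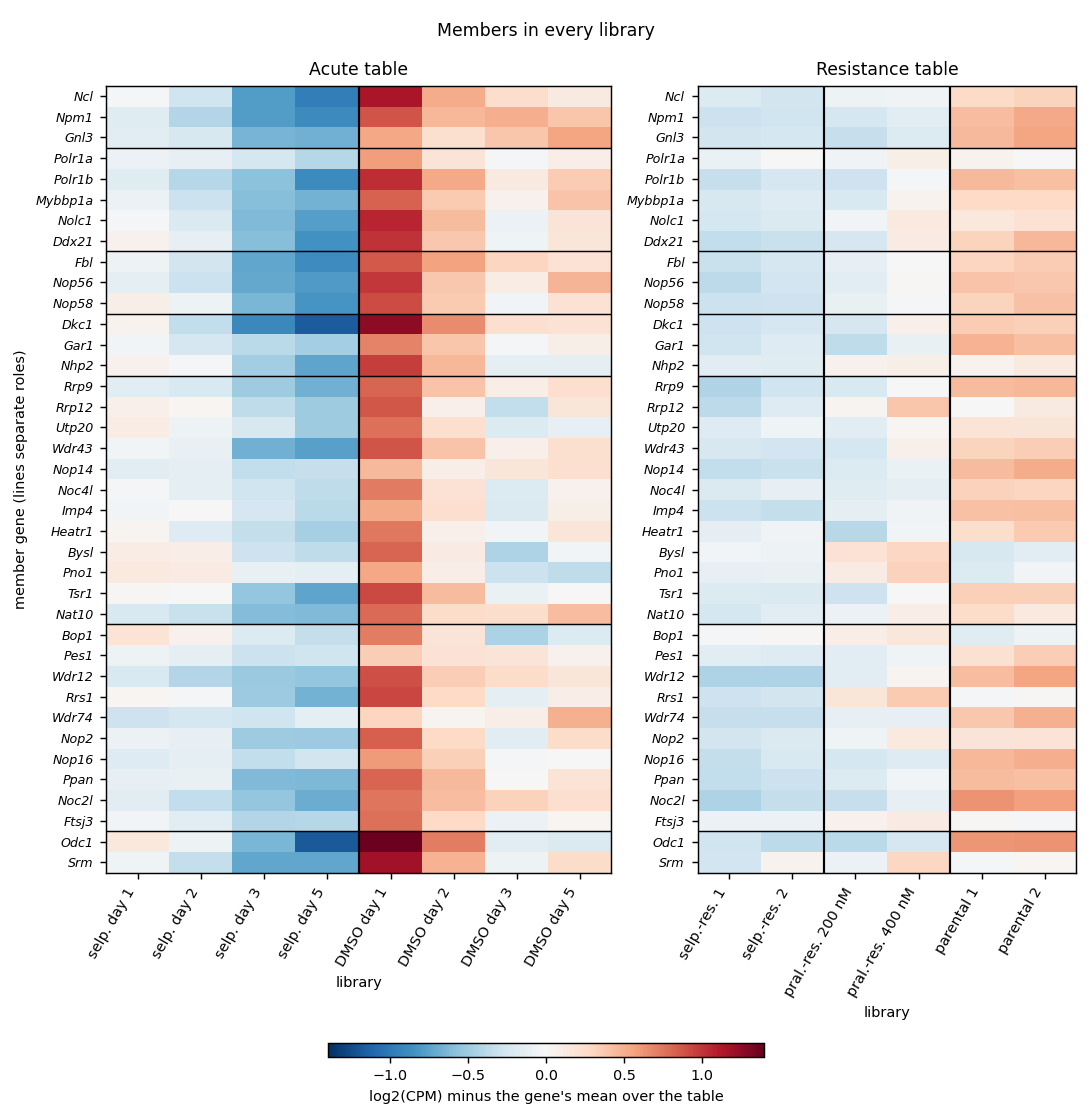
Each cell shows a member's log2 CPM minus its mean over the libraries of the table, for the acute table (selpercatinib left of DMSO, days 1, 2, 3 and 5) and the resistance table (selpercatinib-resistant, pralsetinib-resistant, parental). In the acute table the DMSO day 1 library is the reddest column and the selpercatinib day 5 library the bluest, and 38 of 38 members were lower in selpercatinib on day 1.

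Ncl encodes nucleolin, an RNA-binding protein of the nucleolus that takes part in rRNA transcription and processing. Its levels were 1268, 1058, 743 and 657 CPM on days 1, 2, 3 and 5 in selpercatinib, against 2830.1, 1837, 1524 and 1398 CPM in DMSO. Each selpercatinib library lay below each DMSO library, and both arms were highest on day 1 and lowest on day 5. Npm1, nucleophosmin, a chaperone that holds the granular zone of the nucleolus together, had 817, 694, 536 and 497 CPM in selpercatinib, against 1694, 1274, 1313 and 1202 CPM in DMSO. The arms again did not overlap. Log2 fold changes were -1.02 (SE 0.10, adjusted p = 0.000335) for Ncl and -1.12 (SE 0.11, adjusted p = 0.000269) for Npm1. Gnl3, the GTP-binding protein nucleostemin, fell by 0.85 on the log2 scale (SE 0.13).

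Polymerase I and nucleolar transcription genes fell in 5 of 5 cases. Polr1b, the second-largest subunit of the polymerase, had 52.7, 44.7, 39.6 and 31.9 CPM in selpercatinib on days 1, 2, 3 and 5, against 121, 85.3, 64.4 and 75.4 CPM in DMSO. The arms did not overlap, and the lowest DMSO value came on day 3, not day 5. Its log2 fold change was -1.02 (SE 0.11, adjusted p = 0.000416). Polr1a, the largest subunit, fell by 0.42 on the log2 scale (SE 0.09), and Mybbp1a, a nucleolar transcription regulator, Nolc1, a chaperone of snoRNPs, and Ddx21, an RNA helicase, fell by 0.82, 0.81 and 0.75.

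All 6 snoRNP members fell. Fbl, fibrillarin, the methyltransferase of box C/D snoRNPs, had 103, 90.2, 65.5 and 58.7 CPM on days 1, 2, 3 and 5 in selpercatinib, against 197, 159.7, 134 and 124 CPM in DMSO. Fbl was lower on every day with no overlap of the arms, at a log2 fold change of -0.97 (SE 0.07, adjusted p = 0.000119), and its partners Nop56 and Nop58, the scaffold of the same particles, were at -0.97 (SE 0.11) and -0.72 (SE 0.11). Dkc1, dyskerin, the pseudouridine synthase of box H/ACA particles, had 96.6, 73.3, 49.7 and 41.5 CPM in selpercatinib, against 222, 148, 109.8 and 107 CPM in DMSO. Selpercatinib values lay below every DMSO value, and the log2 fold change of -1.18 (SE 0.08, adjusted p = 8.43e-05) was the lowest of the 38. Gar1 and Nhp2, its partners in the particle, were at -0.56 (SE 0.09) and -0.59 (SE 0.10).

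Small subunit assembly genes fell in 9 of 12 cases. Nat10, the acetyltransferase of 18S rRNA, had 58.5, 54.7, 44.6 and 44.1 CPM on days 1, 2, 3 and 5 in selpercatinib, against 118, 81.0, 80.5 and 91.5 CPM in DMSO, without overlap, at a log2 fold change of -0.87 (SE 0.10, adjusted p = 0.000555). Rrp9 and Wdr43, proteins of the early small subunit particle, fell by 0.77 and 0.79, while Nop14, Heatr1, Noc4l, Utp20 and Imp4, of the same particle, fell by 0.48, 0.47, 0.40, 0.35 and 0.32 on the log2 scale. Tsr1, a factor of late cytoplasmic steps, fell by 0.64. Rrp12 (-0.38, adjusted p = 0.0724), Bysl (-0.23, adjusted p = 0.214) and Pno1 (0.01, adjusted p = 0.937) did not pass. Pno1, a KH-domain protein that holds the 3′ end of the small subunit RNA, had 50.1, 49.3, 42.6 and 42.0 CPM in selpercatinib, against 66.4, 48.8, 37.0 and 35.6 CPM in DMSO. Only the day 1 value of Pno1 was lower in selpercatinib, and the arms overlapped. The calls of Imp4, Noc4l and Utp20 ended when day 2 or day 5 was left out, and those of Imp4 and Utp20 also without day 1.

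Large subunit assembly genes fell in 9 of 10 cases. Noc2l, a nucleolar assembly factor also known as a repressor of transcription, had 163, 143, 126 and 113 CPM on days 1, 2, 3 and 5 in selpercatinib, against 305, 245, 228 and 215 CPM in DMSO. No values of the arms overlapped, and the log2 fold change was -0.87 (SE 0.07, adjusted p = 0.00013). Bop1, Pes1 and Wdr12 form one complex in large subunit assembly, and differences between them were not tested: on the log2 scale Wdr12 fell by 0.84 (SE 0.10) and Pes1 by 0.39 (SE 0.07), while Bop1 was at -0.14 (SE 0.12, adjusted p = 0.378). Bop1 had 115, 105, 87.7 and 79.8 CPM in selpercatinib, against 165, 114, 74.0 and 88.1 CPM in DMSO, and was higher in selpercatinib on day 3. Ppan, Nop2, Rrs1, Ftsj3, Wdr74 and Nop16 fell by 0.73, 0.61, 0.59, 0.50, 0.47 and 0.46 on the log2 scale.

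Both polyamine synthesis genes fell. Srm, spermidine synthase, had 69.7, 58.0, 44.1 and 43.8 CPM in selpercatinib on days 1, 2, 3 and 5, against 165, 102, 69.4 and 86.9 CPM in DMSO. Selpercatinib was lower on each day, while its day 1 value exceeded the DMSO day 3 value by under 1 CPM, at a log2 fold change of -0.92 (SE 0.11, adjusted p = 0.00059). Odc1, ornithine decarboxylase, the first enzyme of the pathway, fell by 0.87 (SE 0.12).

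In 20 of the 38 members every selpercatinib library was below every DMSO library, against 19.6% of all genes tested. On a scale that allows genes to be compared, RPKM (CPM divided by the kilobases of merged exons), Npm1 was the highest member with means of 239 in selpercatinib and 514 in DMSO, and Wdr12 the lowest with 2.13 and 3.87. The median member level was 24.9 RPKM in selpercatinib and 35.7 RPKM in DMSO.

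The size of the difference was then read day by day. The number of members lower in selpercatinib was 38, 37, 35 and 37 on days 1, 2, 3 and 5, and 35 were lower on every day. Over all genes, 6729 of the 13195 tested had an acute log2 fold change below 0. Their shares on single days were not counted. Median log2 ratios of selpercatinib to DMSO were -0.91, -0.47, -0.51 and -0.77 on days 1, 2, 3 and 5. The exceptions were Pno1, with log2 ratios of 0.01, 0.20 and 0.24 on days 2, 3 and 5, and Bysl and Bop1, with 0.14 and 0.24 on day 3. By role, small subunit genes had medians of -0.73, -0.28, -0.19 and -0.60 in day order, whereas box C/D genes had -0.93, -0.68, -0.82 and -1.08. A linear change of the difference with day was called in 0 members by edgeR, DESeq2 and limma, against 1.91% of all genes by edgeR, 1.08% called lower and 0.834% higher. At an unadjusted p under 0.05, 2 members had such a slope, Gnl3 at -0.16 per day (adjusted p = 0.189) and Pno1 at 0.15 per day (adjusted p = 0.216). That is near the share such a cut lets through without any change. The share of all genes at this cut was not counted, so these 2 are not read as a result. There was 1 library per arm and day, so no single day has a replicate check. A linear slope can miss a difference that shrank and then grew, as the medians did. The 0 calls therefore do not show a constant difference.

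**Figure D2:**
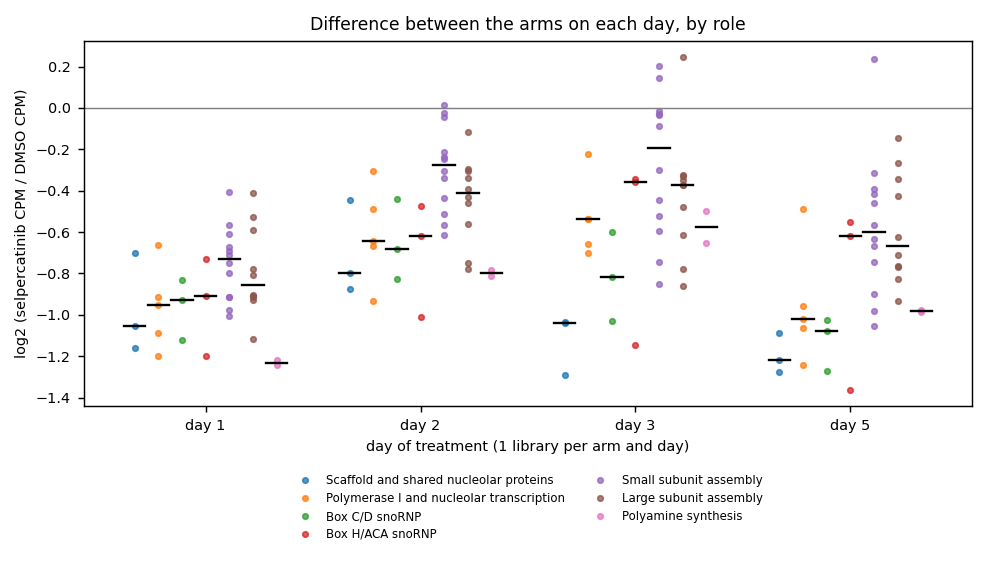
Points are members, placed by day and by role, and show the log2 ratio of selpercatinib CPM to DMSO CPM in that day's pair of libraries, with a black bar at the median of each role. All 38 points lie below 0 on day 1, and on day 3 the small subunit genes lie nearest to 0, with a median of -0.19.

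Member levels were also read by day within each arm. In selpercatinib 33 members were highest on day 1 and 33 were lowest on day 5. In DMSO 36 were highest on day 1, 26 were lowest on day 3, and 29 were higher on day 5 than on day 3. From day 1 to day 5 the median log2 change was -0.53 in selpercatinib and -0.66 in DMSO. On day 3 in DMSO, 18 members were lower than in selpercatinib on day 1. Over all genes, 6396 of the 13195 tested had a slope per day below 0 in selpercatinib and 6522 in DMSO. The shares of all genes highest or lowest on each day were not counted.

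A falling slope per day was called in 6 of 38 members in selpercatinib and 14 of 38 in DMSO, against 7.43% and 17.4% of all genes called lower, and 6.39% and 16.9% called higher, in those arms. No member had a called rise, also at an unadjusted p under 0.05. Odc1 had slopes of -0.35 (SE 0.08, adjusted p = 0.0267) per day in selpercatinib and -0.39 (SE 0.07, adjusted p = 0.00849) in DMSO, with 281, 242, 162 and 112 CPM in selpercatinib on days 1, 2, 3 and 5, against 655, 415, 229 and 220.1 CPM in DMSO. Those values fell from each day to the next in both arms, and the lowest DMSO value lay between the selpercatinib values of days 2 and 3. Ncl, Fbl, Dkc1 and Noc2l also had called falls in both arms. Npm1 passed in selpercatinib (-0.18 per day, SE 0.04) and did not pass in DMSO (-0.10 per day, adjusted p = 0.099), and the slope of its difference was not called (-0.08 per day, adjusted p = 0.459). In DMSO the calls included Nhp2 (-0.27 per day, SE 0.06), a box H/ACA protein, and Pno1 (-0.22 per day, SE 0.05). These counts rested on single days: without day 1 or without day 2 they were 0 in both arms, without day 3 they were 23 in selpercatinib and 28 in DMSO, and without day 5 they were 12 and 33.

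Ribosomal protein genes, which encode the proteins packed into the subunits, were set beside the members. Of 78 tested, 78 were lower in selpercatinib, at a median log2 fold change of -0.71, and 68 to 76 when a day was left out. The members took 0.629, 0.56, 0.434 and 0.394% of a library's counts on days 1, 2, 3 and 5 in selpercatinib, against 1.21, 0.864, 0.742 and 0.779% in DMSO. The ribosomal protein genes took 3.66, 3.65, 3.40 and 3.48% in selpercatinib, against 4.71, 5.25, 6.51 and 7.28% in DMSO. In DMSO the share of the members was thus highest on day 1 and that of the ribosomal protein genes on day 5. Slopes per day in DMSO were called higher for 62 and lower for 2 of the 78 ribosomal protein genes, with 0 called in selpercatinib, and without day 1 or day 2 the calls in DMSO were 0 and 1. The direct test of the difference between the arms by day called 2 of the 78 lower and 0 higher, at a median slope of -0.17 per day, and 0 to 63 lower when a day was left out. The median DMSO slope of the 78 stayed between 0.15 and 0.25 per day whichever day was left out.

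**Figure D3:**
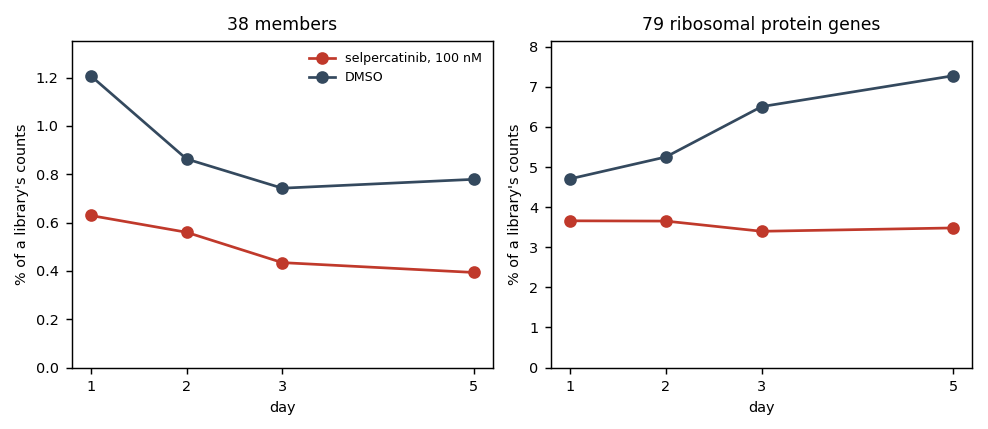
The share of each acute library's counts taken by the 38 members (left) and by 79 ribosomal protein genes (right) is plotted against day, with 1 library per point. Member shares start at 0.629% in selpercatinib and 1.21% in DMSO and end at 0.394% and 0.779%, while ribosomal protein shares in DMSO reach 7.28% on day 5.

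Cell division genes moved with the members. Of 26 mitosis genes 21 were lower in selpercatinib and 0 higher, and their summed level was 730 to 2959 CPM in selpercatinib, against 932 to 5403 CPM in DMSO. All 26 had called falls with day in both arms, and 0 in selpercatinib without day 1. The 12 epithelial markers summed to 12718 to 13799 CPM in selpercatinib and 7230 to 9477 CPM in DMSO. The 8 fibroblast markers summed to 12.1 to 21.9 CPM and 6.78 to 9.01 CPM. Of the 3 fibroblast markers tested, 2 were higher and 1, Pdgfra, was lower, with means of 0.896 CPM in selpercatinib and 2.36 CPM in DMSO. Mitochondrially encoded transcripts, 13 genes, took 1.92 to 2.27% of counts in selpercatinib and 1.51 to 2.06% in DMSO. The part of any of these in the fall of the members was not tested.

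Other genes of the pathway were counted by list. Among 48 other small subunit assembly genes 30 were lower and 0 higher, at a median of -0.33, with Wdr36 at -1.50 (SE 0.11) and Nob1, the nuclease that makes the 3′ end of 18S rRNA, at -0.84 (SE 0.11). Among 54 other large subunit genes 39 were lower and 0 higher, at a median of -0.41, with Rrp1b at -1.26 (SE 0.08). Of 17 other polymerase I genes 7 were lower and 0 higher, at a median of -0.22, with Tcof1, the treacle protein that supports ribosomal DNA transcription, at -1.41 (SE 0.07). Of 21 other snoRNP genes 16 were lower and 0 higher, at a median of -0.73, among them the box H/ACA assembly factor Naf1 at -1.13 (SE 0.09), the snoRNP assembly helicases Ruvbl2 and Ruvbl1 at -0.84 and -0.81, and the snoRNA host Snhg8 at -1.33 (SE 0.17). Leaving out a day gave 19 to 25 lower for the 48, 31 to 35 (and at most 1 higher) for the 54, 5 or 6 for the 17 and 13 to 16 for the 21. Polyamine genes other than Odc1 and Srm went both ways, with 6 higher and 4 lower of 13, among them Sat1, which acetylates polyamines for export and breakdown, at 1.51 (SE 0.11) and Sms, spermine synthase, at -0.81 (SE 0.07).

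Myc had 276, 298, 235 and 215 CPM in selpercatinib on days 1, 2, 3 and 5, against 399, 467, 504 and 524 CPM in DMSO. Myc was lower on each day without overlap, at a log2 fold change of -0.89 (SE 0.14, adjusted p = 0.00206). In DMSO, Myc was lowest on day 1 and 36 members were highest on that day. Among 12 tested genes of the MYC and MAX network 3 were higher, Mycn at 3.81 (SE 0.25), Mycl at 0.97 (SE 0.20) and Mxd4 at 0.86 (SE 0.20), and 2 were lower, Myc and Mxd1 at -0.38 (SE 0.10). A group mean of 1 CPM or more was reached by 11 of the 13 listed network genes in DMSO and by 12 in selpercatinib. Some of these fold changes may therefore start from a low level. ERK output genes, which include Myc, were lower in 16 and higher in 3 of 19 cases, with the ETS factors Etv5 at -3.35 (SE 0.08) and Etv4 at -2.81 (SE 0.09).

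The resistance table sets cultures that grow in inhibitor beside parental cells. Selpercatinib-resistant cells had 32 of 38 members lower and 0 higher than parental cells, where 34.4% of the 14370 genes tested were called lower and 35.2% higher, 69.6% in all. No member was higher at an unadjusted p under 0.05, by DESeq2 or by limma. Pralsetinib-resistant cells had 26 lower and 4 higher, where 34.6% of genes were lower and 35.7% higher, 70.3% in all. Median log2 fold changes of the members were -0.55 in selpercatinib-resistant and -0.42 in pralsetinib-resistant cells, against -0.000604 and 0.00595 over all genes tested. Both comparisons share the parental libraries. With library size as the only scaling, the median of all genes moved to 0.145 and 0.177, the split of all called genes to 6141 higher and 3900 lower, and to 6431 higher and 3789 lower, and the members to 27 lower and 2 higher, and to 21 lower and 6 higher.

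**Figure D4:**
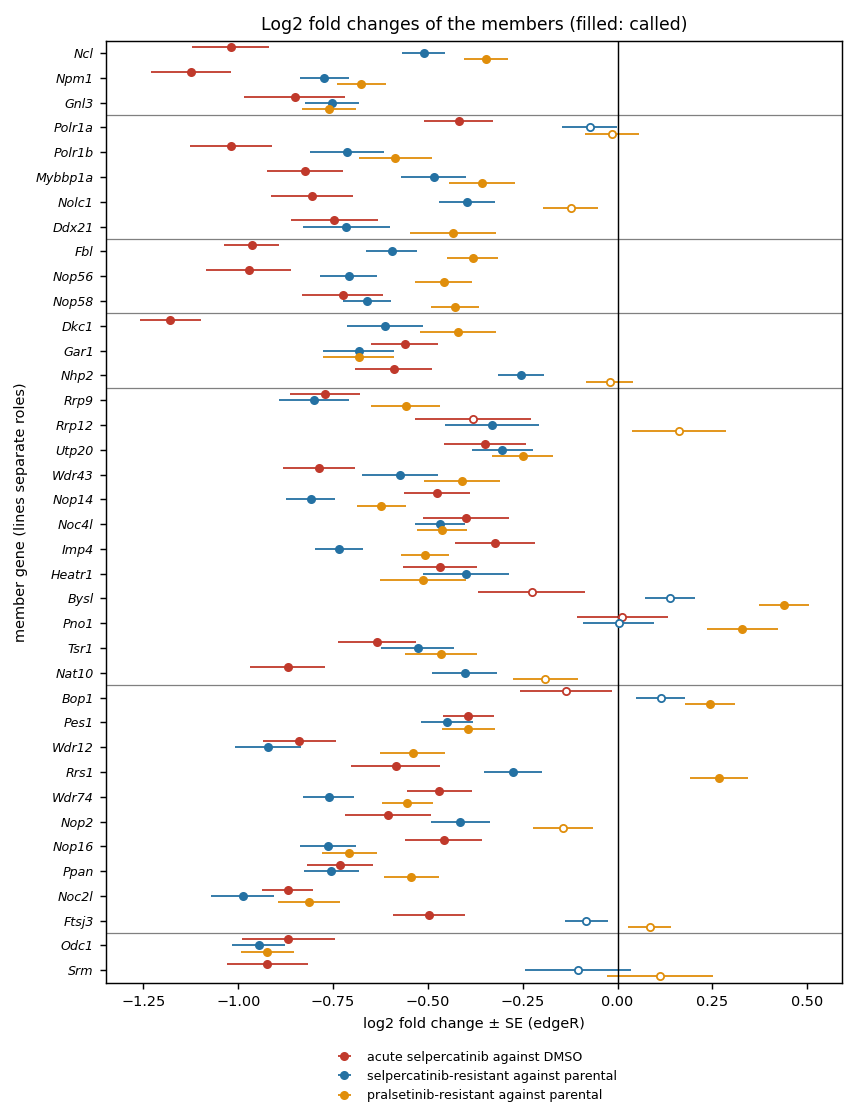
Log2 fold changes of the 38 members with their standard errors are shown for acute selpercatinib against DMSO and for selpercatinib-resistant and pralsetinib-resistant cells against parental ones, with filled points for an adjusted p under 0.05. Called points lie left of 0 for 34, 32 and 26 members, and right of 0 for Bysl, Pno1, Rrs1 and Bop1 in pralsetinib-resistant cells. Open points of Polr1a, Ftsj3, Srm, Nolc1, Nhp2 and Nop2 cross 0 in 1 or both resistant groups with library size as the only scaling.

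The abundant nucleolar proteins were lower in both resistant groups. Ncl had 1244 and 1194 CPM in selpercatinib-resistant and 1353 and 1379.6 CPM in pralsetinib-resistant libraries, against 1710.2 and 1765 CPM in parental libraries. Npm1 had 1037 and 1046 CPM, and 1077 and 1152 CPM, in the same 2 resistant groups, against 1719.6 and 1841 CPM in parental libraries. No resistant library reached a parental one for either gene. Ncl was at -0.51 (SE 0.06, adjusted p = 0.000134) in selpercatinib-resistant and -0.35 (SE 0.06, adjusted p = 0.00103) in pralsetinib-resistant cells, and Npm1 at -0.77 (SE 0.06) and -0.68 (SE 0.06). Gnl3 had 67.1 and 67.6 CPM, and 64.1 and 69.8 CPM, against 109 and 118 CPM in parental libraries, and fell by 0.75 and 0.76 on the log2 scale. For Gnl3 the resistant groups overlapped each other and lay below both parental libraries.

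Polr1b had 46.2 and 49.5 CPM in selpercatinib-resistant and 47.3 and 57.2 CPM in pralsetinib-resistant libraries, against 79.5 and 77.4 CPM in parental libraries. Both resistant groups lay below the parental libraries, at -0.71 (SE 0.10) and -0.59 (SE 0.10), whereas Polr1a was at -0.07 (adjusted p = 0.385) and -0.01 (adjusted p = 0.865), values that turned to 0.07 and 0.16 with library size as the only scaling. The other 3 genes of this role fell in selpercatinib-resistant cells, and Nolc1 did not pass in pralsetinib-resistant cells (-0.12, adjusted p = 0.163, positive with library size only).

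Among the snoRNP genes, Fbl had 97.7 and 103 CPM in selpercatinib-resistant and 112 and 121 CPM in pralsetinib-resistant libraries, against 149 and 154 CPM in parental libraries. On the log2 scale Fbl fell by 0.60 (SE 0.07) and 0.38 (SE 0.07), Nop56 by 0.71 and 0.46, and Nop58 by 0.66 and 0.43, with the parental libraries above all resistant ones in each case. Gar1 had 41.8 and 44.7 CPM, and 39.5 and 47.0 CPM, in the same 2 resistant groups, against 71.1 and 67.8 CPM in parental libraries, at -0.68 (SE 0.09) in each. Nhp2 was lower in selpercatinib-resistant cells (-0.25, SE 0.06) and did not pass in pralsetinib-resistant cells (-0.02, adjusted p = 0.773, positive with library size only).

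In small subunit assembly, Nop14 had 114 and 116 CPM in selpercatinib-resistant and 126 and 135 CPM in pralsetinib-resistant libraries, against 196 and 207 CPM in parental libraries. Its log2 fold changes were -0.81 (SE 0.06) and -0.62 (SE 0.06), with no overlap. Of the 12 genes of this role 10 were lower in selpercatinib-resistant cells, and 8 lower with 2 higher in pralsetinib-resistant cells. Bysl, bystin, a late small subunit factor, had 55.4 and 54.4 CPM in selpercatinib-resistant and 65.7 and 69.5 CPM in pralsetinib-resistant libraries, against 48.8 and 50.9 CPM in parental libraries. Both resistant groups stood above the parental libraries, with 0.14 (adjusted p = 0.0933) and 0.44 (SE 0.07, adjusted p = 0.000602). Pno1 had 35.8 and 36.1 CPM, and 41.8 and 48.4 CPM, against 34.0 and 37.8 CPM in parental libraries, so that only the pralsetinib-resistant pair stood apart, at 0.33 (SE 0.09, adjusted p = 0.014). Without the first parental library the adjusted p of Pno1 in pralsetinib-resistant cells missed the threshold, at a log2 fold change of 0.24.

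In large subunit assembly, Noc2l had 105 and 112 CPM in selpercatinib-resistant and 114 and 131 CPM in pralsetinib-resistant libraries, against 219.9 and 211 CPM in parental libraries. Its log2 fold changes were -0.99 (SE 0.08) and -0.81 (SE 0.08), without overlap. Bop1 had 101 and 104 CPM, and 109.8 and 114 CPM, in the same 2 resistant groups, against 91.4 and 97.8 CPM in parental libraries, and was at 0.11 (adjusted p = 0.154) and 0.24 (SE 0.07, adjusted p = 0.0111). Its complex partners went the other way: Pes1 fell by 0.45 and 0.39, and Wdr12 by 0.92 and 0.54 on the log2 scale. Rrs1, an assembly factor that brings 5S RNA particles into the large subunit, had 61.8 and 62.9 CPM in selpercatinib-resistant and 84.9 and 96.6 CPM in pralsetinib-resistant libraries, against 74.6 and 76.2 CPM in parental libraries. Selpercatinib-resistant libraries lay below and pralsetinib-resistant libraries above the parental pair, at -0.28 (SE 0.08, adjusted p = 0.0136) and 0.27 (SE 0.08, adjusted p = 0.0151). The rise of Rrs1 in pralsetinib-resistant cells lost its call without either parental library, at 0.24 and 0.27, and its fall in selpercatinib-resistant cells without any 1 parental or selpercatinib-resistant library, at -0.31 to -0.26. Bop1 lost its call in pralsetinib-resistant cells without the first parental library, at 0.18.

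The polyamine genes split. Odc1 had 142 and 134 CPM in selpercatinib-resistant and 133 and 147 CPM in pralsetinib-resistant libraries, against 265 and 267 CPM in parental libraries, at -0.95 (SE 0.07, adjusted p = 1.42e-05) and -0.92 (SE 0.07, adjusted p = 1.56e-05). Each resistant library lay below both parental ones. Srm had 58.6 and 72.7 CPM, and 66.5 and 86.1 CPM, against 69.4 and 71.7 CPM in parental libraries, with overlap in both comparisons and no call (-0.10 and 0.11). In all, 6 members did not pass in selpercatinib-resistant cells, with log2 fold changes of -0.10 to 0.14, and 8 did not pass in pralsetinib-resistant cells, with -0.19 to 0.16. Besides Rrs1, calls of Nhp2, Rrp12, Utp20 and Heatr1 in selpercatinib-resistant cells were lost without at least 1 of the parental or selpercatinib-resistant libraries, at -0.43 to -0.23. In pralsetinib-resistant cells Utp20 lost its call without either parental library, and Ddx21 and Wdr43 without the second. There Rrp12 and Srm were called higher without the 200 nM library (0.33 and 0.29), and Nolc1, Nop2 and Nat10 lower without the 400 nM library (-0.21, -0.25 and -0.28).

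The resistant groups were compared with each other, at labelled doses that differ (500 nM against 200 and 400 nM). Of the 38 members 4 were lower in selpercatinib-resistant than in pralsetinib-resistant cells and 0 higher, where 4.13% of genes were lower and 6.46% higher, and no member was higher at an unadjusted p under 0.05, by DESeq2 or by limma. They were Rrs1 (-0.54, SE 0.08, adjusted p = 0.00858), Bysl (-0.30, SE 0.07, adjusted p = 0.0308), Wdr12 (-0.38, SE 0.09, adjusted p = 0.0353) and Rrp12 (-0.49, SE 0.12, adjusted p = 0.047). Wdr12 had 28.2 and 28.1 CPM in selpercatinib-resistant and 34.1 and 39.1 CPM in pralsetinib-resistant libraries, and Rrp12 had 30.8 and 34.9 CPM and 40.7 and 51.7 CPM. Both selpercatinib-resistant libraries were below both pralsetinib-resistant ones for these 4. This held for 23 of the 38 members, against 28.6% of all genes tested. The other 34 ran from -0.33 to 0.11 without a call, among them Ncl at -0.16 (adjusted p = 0.114), Fbl at -0.21 (adjusted p = 0.0876) and Npm1 at -0.10 (adjusted p = 0.371). The 4 calls fell to 0 without either selpercatinib-resistant library, to 1 without either parental library, and grew to 27 without the 200 nM library and to 11 without the 400 nM library.

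All 38 members were higher in the 400 nM than in the 200 nM pralsetinib-resistant library, against 6800 of 14317 genes. The median was 0.17 on the log2 scale for the members, against -0.02 over all genes, with 1 library per dose and no test. Between the 2 parental libraries, and between the 2 selpercatinib-resistant ones, the median member difference was -0.04 in each pair.

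**Figure D5:**
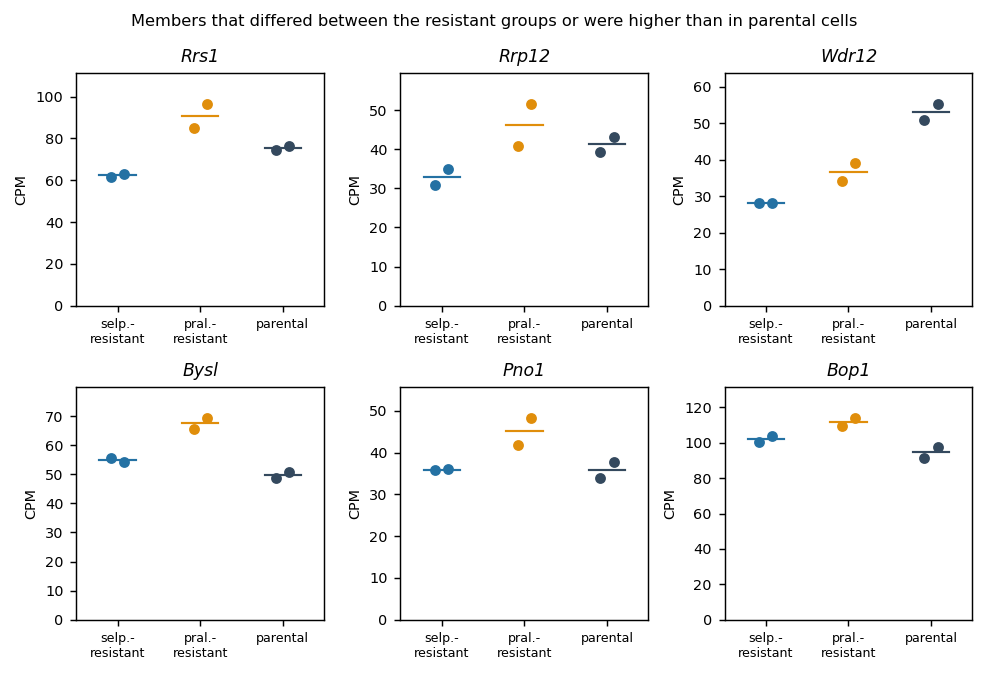
CPM in each of the 6 resistance libraries is plotted for the 4 members that differed between the resistant groups and for Pno1 and Bop1, with a line at the mean of the 2 libraries (in the pralsetinib-resistant pair, 200 nM is left of 400 nM). Rrs1 lies at 61.8 and 62.9 CPM in selpercatinib-resistant, 84.9 and 96.6 CPM in pralsetinib-resistant and 74.6 and 76.2 CPM in parental libraries.

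Members called lower in the acute and the resistant comparisons, which share no library, can be set side by side. Of the 34 members lower in acute selpercatinib, 31 were also lower in selpercatinib-resistant cells (of 32 lower there) and 26 in pralsetinib-resistant cells (of 26). These are 91.2 and 76.5% of the acutely lower members, where 61.3 and 61.1% of all acutely lower genes were also lower in the same resistant cells, over 12973 genes tested in both tables. Rrs1 was lower acutely and higher in pralsetinib-resistant cells. As a description across the 38 genes, which are not independent replicates, the acute log2 fold change had a Pearson r of 0.55 with that of selpercatinib-resistant cells and 0.48 with that of pralsetinib-resistant cells.

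Around the members, ribosomal protein genes were lower in 71 of 78 cases and higher in 0 in selpercatinib-resistant cells (median -0.48), and lower in 66 and higher in 1 in pralsetinib-resistant cells (median -0.46). Other small subunit genes were lower in 33 and higher in 3 of 48 in selpercatinib-resistant cells (median -0.32), and lower in 21 and higher in 6 in pralsetinib-resistant cells, where the median of -0.14 turned to 0.03 with library size as the only scaling. Other large subunit genes were lower in 38 and higher in 1 of 54 (median -0.45) and lower in 34 and higher in 3 (median -0.32) in the same order, with Nop53, which docks the exosome on the large subunit precursor, at -1.34 (SE 0.08) and -1.28 (SE 0.08). Among 17 other polymerase I genes 9 were lower and 1 higher, and 8 lower and 6 higher, with medians of -0.26 and of -0.09, the second of which turned to 0.08 with library size only. Of 21 other snoRNP genes 13 were lower and 3 higher in selpercatinib-resistant cells (median -0.37), and 13 lower and 5 higher in pralsetinib-resistant cells (median -0.48). Among them, Snhg5, Snhg12 and Gas5, transcripts that host snoRNAs, were at -2.43, -3.04 and -1.77 in selpercatinib-resistant cells and at -2.25, -2.93 and -1.64 in pralsetinib-resistant cells. Mitosis genes went against the members here, with 21 of 26 higher and 1 lower in each resistant group, and a summed level of 3099 to 3269 and 2849 to 3261 CPM against 2070 to 2153 CPM in parental libraries. Mitochondrially encoded transcripts took 2.37 to 2.42% and 3.06 to 3.08% of counts, against 1.64 to 1.70% in parental libraries. The part of these, and of the epithelial and fibroblast markers above, in the member values was not tested.

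Myc had 153 and 156 CPM in selpercatinib-resistant and 148 and 139.6 CPM in pralsetinib-resistant libraries, against 636 and 672 CPM in parental libraries. Its log2 fold changes were -2.08 (SE 0.06) and -2.18 (SE 0.07), each further from 0 than that of any member. Of the 12 genes of the MYC and MAX network 6 were lower and 3 higher in selpercatinib-resistant cells, and 7 lower and 3 higher in pralsetinib-resistant cells. Max, the partner of MYC, was at -0.77 (SE 0.07) and -0.75 (SE 0.07), and Mxd1 at -0.50 (SE 0.09) and -0.64 (SE 0.09). Mxd4 was at 1.10 (SE 0.10) and 0.87 (SE 0.10). Mycn was at 3.10 (SE 0.26) and 3.21 (SE 0.26), and Mxd3, a MAX partner without activating function, at 3.20 (SE 0.17) and 3.41 (SE 0.17). A group mean of 1 CPM or more was reached by 11 of the 13 listed network genes in parental cells and by 12 in each resistant group, so some large rises may start from a low level.

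The members lie on 17 chromosomes, among them Ncl at chr1:86344719-86359400, Npm1 at chr11:33152287-33163206 and Fbl at chr7:28169710-28179269 (mm10, GENCODE M21). Of the 38, 9 hold 24 small nucleolar or Cajal body RNA genes inside them on their strand, among them Ncl, Gnl3, Nop56, Nop58, Wdr43 and Tsr1. Exon bases are shared with another gene in 21 members, most for Tsr1, where 32.3% lie opposite Srr, Noc2l, where 20.9% lie opposite Samd11, and Bysl, where 9.37% lie opposite Ccnd3. The kit keeps strand, but the setting used to count is not given in the sources used here, so values of these 3 are uncertain to that extent.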

How the data were processed

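Poly(A) RNA of 14 libraries was sequenced with a stranded kit, per the labels' protocols. FastQC, STAR, edgeR and the build mm10 are named in the submitters' processing notes, without versions. How genes were counted, with which annotation and strand setting, is not given in the sources used here. The authors deposited 2 tables of 55415 rows named as CPM, whose values are whole numbers with different library totals and were therefore treated as raw counts per gene. Of these rows, 24 carry a number in place of a gene name, hold 0.163 to 0.215% of counts and were left out.

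Genes at 1 CPM or more in at least 4 acute or 2 resistance libraries were tested (13195 and 14370), and all 38 members passed in both tables. Counts were scaled by TMM and fitted with edgeR 4.0.16 in R 4.3.3 (quasi-likelihood test), and calls were made at an adjusted p under 0.05, by Benjamini-Hochberg, over every gene of the fit. The acute fit holds treatment with day as a block, and separate fits on the same 8 libraries gave the slopes by day. All 6 resistance libraries share one fit. The labels give the day as batch. Deviations of same-day libraries correlated at 0.433 to 0.642 over the genes tested, and those of different days at up to 0.58. Standard errors are approximate: the size of the log2 fold change was divided by the root of its F statistic. A count of 3 corresponds to 0.0335 to 0.0528 CPM, and such floors cover counting error only. The 2 libraries of each resistance group differed by more than sampling noise. Chi-square per degree of freedom was 6.45 in parental, 11.8 in selpercatinib-resistant and 40.5 in pralsetinib-resistant cells, whose libraries differ in labelled dose.

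Alternatives were RLE factors, library size only, no filter on low counts, DESeq2 1.42.0, limma 3.58.1 on log2(CPM + 1) and on log2(CPM + 0.25), day or replicate number in or out of the fit, and each day or library left out. Keeping the 24 unnamed rows, and rescaling or leaving out libraries for the other gene lists, were added after seeing the data. The fits of the acute and the selpercatinib-resistant comparison were run on simulated counts with set changes and no day effect. The slopes by day were not simulated, so that run does not bear on them. The 38 members and all gene lists were chosen with earlier results of these data known, so counts over them are not independent evidence of their direction. Values per library are given for Ncl, Fbl and Npm1, for members called against the direction of most, and for most called members with the lowest p in a role. Exceptions are Nop58, lowest of the box C/D genes in both resistant comparisons, and Nhp2, lowest of the box H/ACA genes in the DMSO slopes. Gnl3, Pno1, Bop1 and Srm were also given in comparisons where these rules did not pick them, for values already seen. Exon lengths and positions come from GENCODE M21 and promoters from RefSeq.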

Additional observations from a re-analysis of the deposited data

Results flagged for a closer look

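Direct comparison of selpercatinib-resistant with pralsetinib-resistant cells found a difference in 4 members. Their log2 differences were -0.543 for Rrs1, -0.493 for Rrp12, -0.381 for Wdr12 and -0.3 for Bysl. All 4 lost their call without either selpercatinib-resistant library. In the 76 groups of 4 acute libraries looked at, 1 for each member and arm, 0 had a library far from the other 3 by Dixon's criterion. The 4 libraries of a group are different days, not replicates, and the groups share libraries. The rate of about 1 in 20 set for replicates therefore does not apply, and the count cannot show that no library stands apart.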

How the results depend on the processing

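Depth did not limit the members, which were at 23.3 CPM or more in every library. In the acute comparison the 34 lower members numbered 31 to 34 with a day left out and 23 with no replicate block, that is, with day out of the fit. Numbers of the selpercatinib-resistant and parental libraries did not pair them (correlation of deviations -0.05), and with the number as a replicate block 32 members were lower and 2 higher in selpercatinib-resistant cells. Members lower with day in DMSO numbered 9 with library size only, 31 with no filter and 0 to 33 with a day left out, and in selpercatinib 24 with no filter, 13 by DESeq2 and 0 to 23. Rises of the acute difference with day numbered 0 to 4 with a day left out.

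With a library left out, selpercatinib-resistant cells had 27 to 32 members lower and 0 to 2 higher, and pralsetinib-resistant cells 23 to 29 lower and 1 to 6 higher. Library size only gave 2 higher in selpercatinib-resistant cells. Between resistant groups the 4 lower members numbered 7 with library size only, 10 with no filter, 14 by DESeq2, 7 by limma on log2(CPM + 1) and 0 to 27 with a library left out, and higher ones 0 to 1.

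Among the members' acute, resistant-against-parental and between-resistant values, signs turned for values without a call. Slopes of single members by day were not part of this comparison, and the members' median slope of the acute difference, 0.00183 per day, turned to -0.00473 with RLE factors and -0.0195 with library size only. It was also below 0 with no filter, by DESeq2, with unnamed genes kept and without day 1 or day 3. Acute Pno1 was at -0.00199 with library size only, at -0.0296 with no replicate block, and between -0.0412 and 0.152 with a day left out. With library size only, selpercatinib-resistant values were 0.0715 for Polr1a, 0.0627 for Ftsj3 and 0.0413 for Srm, and pralsetinib-resistant values 0.158 for Polr1a, 0.0493 for Nolc1, 0.151 for Nhp2 and 0.0287 for Nop2, while no filter put Polr1a at 0.00627. With a library left out, selpercatinib-resistant Pno1 lay between -0.0869 and 0.061 and Srm between -0.261 and 0.048. Pralsetinib-resistant Polr1a then lay between -0.0774 and 0.0553, Nhp2 between -0.0785 and 0.00916, Rrp12 between -0.0156 and 0.33, and Srm between -0.082 and 0.29. The cause of these changes was not tested.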
